A study of Saccharomyces cerevisiae with 24 samples.

Results

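The genes described here are 10 genes of *Saccharomyces cerevisiae* that take up sulfate and turn it into methionine, or take up methionine itself. They are *SUL1*, *SUL2*, *MET3*, *MET14*, *MET16*, *MET10*, *MET2*, *MET6*, *STR3* and *MUP1*. They were chosen by name from this pathway, with earlier results of these data known. Each was measured by 1 probe set, out of 5498 probe sets (5449 genes) that the array annotation pairs with a single yeast gene. All 10 passed into the tests. The study asked how transcription differs between cells without the histone variant H2A.Z (Htz1) and cells without the SWR1 complex, which puts H2A.Z into chromatin. RNA of 8 strains was hybridised to Affymetrix Yeast Genome 2.0 arrays, from 3 independent cultures of each strain, which makes 24 arrays.

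All strains are *MATa his3Δ1 leu2Δ0 ura3Δ0 met15Δ0* and were grown to mid-log phase in supplemented minimal medium (SMM). Wild type is BY4741. The *htz1Δ* strain has *HTZ1* replaced by *kanMX4* and also lacks *BAR1* (*bar1Δ::hyg*), a protease gene that the other strains keep. The *swr1Δ*, *swc2Δ* and *swc5Δ* strains each lack 1 subunit of the SWR1 complex, the ATPase Swr1, Swc2 (gene *VPS72*) or Swc5. The double mutants *htz1Δ swr1Δ*, *htz1Δ swc2Δ* and *htz1Δ swc5Δ* lack H2A.Z and 1 subunit, and *htz1Δ swc5Δ* also carries *lys2Δ0*. In every comparison of *htz1Δ swc5Δ*, and in the interaction with Swc5, *lys2Δ0* cannot be told apart from the other deletions. *bar1Δ* is in the *htz1Δ* strain alone, so in *htz1Δ* against wild type the loss of *HTZ1* and of *BAR1* cannot be told apart. In the double mutants against *htz1Δ*, *HTZ1* is absent on both sides. There the loss of the subunit and the presence of *BAR1* cannot be told apart. *BAR1* likewise differs in *htz1Δ* against *swr1Δ*, *swc2Δ* or *swc5Δ*, and it enters every interaction together with *HTZ1*. Each genotype was represented by 1 strain, except that the labels give cultures 2 and 3 of *swr1Δ* other strain numbers than culture 1 while titling all 3 *swr1Δ*. The shared *met15Δ0* allele bears on these genes directly, since *MET15* (*MET17*) encodes the enzyme that joins sulfide to O-acetylhomoserine in this same pathway. No strain, wild type included, can therefore finish the path from sulfate to homocysteine in the usual way.

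In yeast, sulfate enters the cell through the permeases Sul1 and Sul2. It is activated to adenosine phosphosulfate by Met3 and phosphorylated by Met14, the product is reduced to sulfite by Met16, and sulfite is reduced to sulfide by a reductase of which Met10 is a subunit. Met2 acetylates homoserine to make the carbon skeleton, Met6 methylates homocysteine to methionine, Str3 makes homocysteine from cystathionine, and Mup1 is the high-affinity methionine permease. The pathway is known for common control by the activator Met4 with Cbf1, Met28, Met31 and Met32, which is turned down when sulfur amino acids are plentiful.

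Levels of the deleted genes followed the labels. *BAR1* was at or under 3.22 in *htz1Δ* and at or above 11.55 elsewhere, and *LYS2* at or under 3.94 in *htz1Δ swc5Δ* and at or above 10.53 elsewhere. *HTZ1*, *SWR1*, *VPS72* and *SWC5* were at or under 3.27, 3.75, 4.66 and 2.99 (log2 expression) on every array of a strain that lacks them, and at or above 10.13, 9.02, 8.99 and 7.59 on all others. *MET17* lay between 2.80 and 3.60 on all 24 arrays, a range that meets the 95th percentile of the probe sets of another yeast species on the same arrays (3.46 to 4.09). Of the MATa genes *STE2*, *MFA1* and *MFA2* the lowest value was 12.36, and the α-factor genes *MF(ALPHA)1* and *MF(ALPHA)2* did not exceed 5.54, while *STE3*, the other MATα gene looked at, reached 7.78. The arrays of *swr1Δ* (array medians of 9.29 to 9.30), *swc2Δ* (10.06 to 10.10) and *swc5Δ* (9.97 to 9.99) were deposited at other levels than the 15 arrays of the other 5 strains (9.71 to 9.77). To bring them to a common level, each of the 9 was given by rank the average values of those 15, which moved the 10 genes by 0.23 to 0.57 in *swr1Δ*, by -0.53 to -0.28 in *swc2Δ* and by -0.28 to 0.01 in *swc5Δ*. Array processing and mutation cannot be told apart for these 3 strains. The *swc5Δ* culture 1 stood apart from cultures 2 and 3 of its strain, and results on that strain are also given without it where it moved a call or a value.

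The values below are log2 expression on this common level, and a difference of 1 is a 2-fold change. A gene is said to rise or fall where its adjusted p was under 0.05 (limma over all 24 arrays, Benjamini-Hochberg over the 5498 probe sets of a comparison, 3 cultures per strain). A percentage in brackets after a count is the share of all 5498 probe sets in the same fit. Where a count from an alternative fit has no such percentage, it is not set against all probe sets. An array value is relative to the RNA of the whole culture, so a shift in all cells and a larger shift in some of them cannot be told apart.

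**Figure D1:**
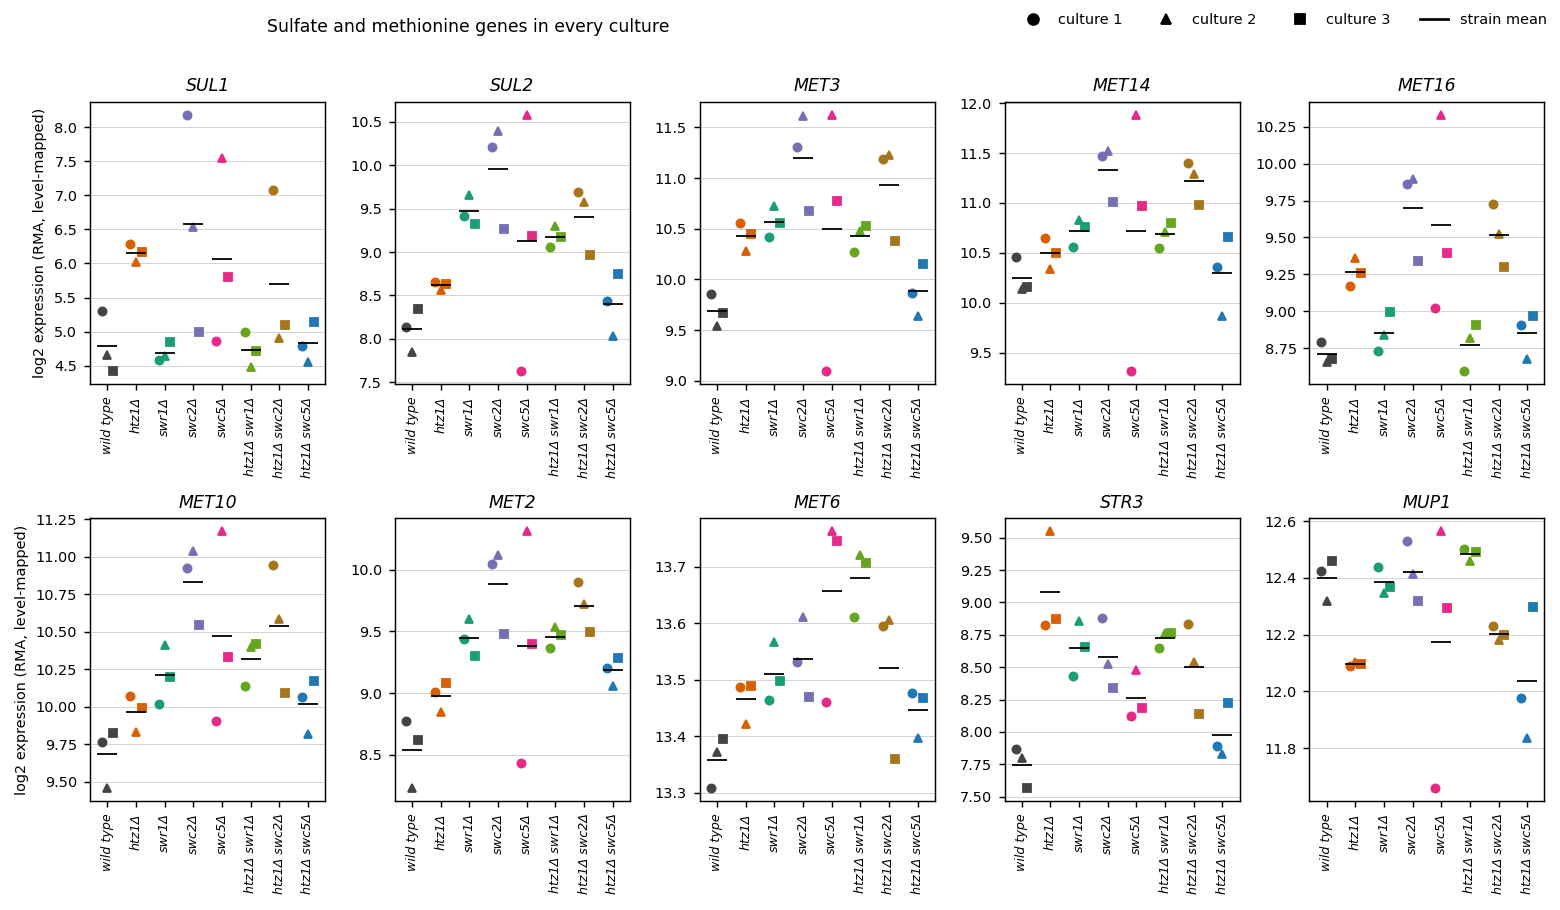
Log2 expression (vertical axis) of the 10 genes in each of 8 strains (horizontal axis), with 1 point per culture, marker shape for the culture number and a black line for the strain mean of 3 cultures. *SUL2*, *MET3*, *MET14* and *MET2* sit lowest by strain mean in wild type and highest in *swc2Δ*, while the *swc5Δ* points of culture 1 and culture 2 lie 2.96 apart for *SUL2*.

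The sulfate permease gene *SUL2* (YLR092W) was lowest in wild type and highest in *swc2Δ*. Its values were 8.14, 7.85 and 8.35 in wild-type cultures 1, 2 and 3. They were 10.21, 10.39 and 9.26 in *swc2Δ* and 9.69, 9.57 and 8.97 in *htz1Δ swc2Δ*. All cultures of these 2 mutants lay above all of wild type, and culture 3 was the lowest of the strain in both. *SUL2* rose 3.58-fold in *swc2Δ* (1.84 on the log2 scale with a standard error of 0.46, adjusted p = 0.00458, limma) and 2.45-fold in *htz1Δ swc2Δ* (1.30, adjusted p = 0.0376, limma). In *swr1Δ* the values of 9.42, 9.66 and 9.33 were also all above wild type, and the gene rose 2.56-fold (1.36, adjusted p = 0.0296, limma). *htz1Δ swr1Δ* lay close to *swr1Δ*, at 9.06, 9.30 and 9.17, with a difference from wild type of 1.06 that did not pass (adjusted p = 0.0899, limma). *htz1Δ* was at 8.66, 8.56 and 8.64, narrowly above wild type, with a difference of 0.51 (adjusted p = 0.371, limma). With the values as deposited *SUL2* in *swr1Δ* does not pass (0.89, adjusted p = 0.0834), nor without wild-type culture 1 or 2 or any single *swr1Δ* culture (0.0537 to 0.0945, limma). In *htz1Δ swc2Δ* it does not pass without any single wild-type culture or without culture 1 or 2 of that strain (adjusted p of 0.0546 to 0.122, limma).

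By strain mean the order of *SUL2* was wild type (8.11 ± 0.25, SD, n = 3 cultures), *htz1Δ swc5Δ* (8.40 ± 0.36), *htz1Δ* (8.62 ± 0.05), *swc5Δ* (9.13 ± 1.48), *htz1Δ swr1Δ* (9.18 ± 0.12), *htz1Δ swc2Δ* (9.41 ± 0.39), *swr1Δ* (9.47 ± 0.17) and *swc2Δ* (9.95 ± 0.61). Cultures of neighbouring strains overlapped at every step of that order. *swc5Δ* had the widest spread of any strain, with 7.63, 10.58 and 9.19 in cultures 1, 2 and 3. Its culture 1 was the lowest and its culture 2 the highest of all 24 arrays.

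*SUL1* (YBR294W), the other sulfate permease gene, behaved unlike *SUL2* in the strains without Swr1. In wild type its values were 5.31, 4.65 and 4.42. They were 4.58, 4.64 and 4.85 in *swr1Δ* and 4.99, 4.48 and 4.72 in *htz1Δ swr1Δ*, all within the wild-type range. For *swr1Δ* this holds on the common level only. As deposited its values were 4.09, 4.07 and 4.29, below every wild-type culture. They lay near the 95th percentile of the probe sets of another species (3.46 to 4.09). In *htz1Δ*, by contrast, the 3 cultures agreed closely at 6.29, 6.02 and 6.18, every one above wild type, and the difference of 1.37 missed the threshold (2.58-fold, standard error 0.67, adjusted p = 0.094, limma). With only these 2 strains in the fit it passes (adjusted p = 0.00204), and with quantile normalization too (1.82, adjusted p = 0.0294, limma).

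*SUL1* was uneven between cultures in 3 other strains. *swc2Δ* cultures read 8.18, 6.54 and 5.0, and *htz1Δ swc2Δ* cultures 7.08, 4.90 and 5.10. *swc5Δ* read 4.86, 7.54 and 5.81. Culture 1 was highest in both strains without Swc2, and the lowest culture of each of these 3 strains lay within the wild-type range. *SUL1* rose in *swc2Δ* (1.78, adjusted p = 0.0466, limma), but does not pass without *swc2Δ* culture 1 (0.97, adjusted p = 0.277) or culture 2, without any single wild-type culture, or with only the strains compared in the fit (0.114).

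*MET3* (YJR010W, ATP sulfurylase) and *MET14* (YKL001C, adenylylsulfate kinase) carry out the activation steps. *MET3* was at 9.86, 9.54 and 9.67 in wild type. It was at 11.30, 11.61 and 10.67 in *swc2Δ* and at 11.19, 11.23 and 10.38 in *htz1Δ swc2Δ*. Both mutants lay clear of wild type in all cultures, and *MET3* rose 2.84-fold (1.51, standard error 0.40, adjusted p = 0.00729) and 2.37-fold (1.25, adjusted p = 0.0239, limma). The second of these does not pass without wild-type culture 2 or 3 or *htz1Δ swc2Δ* culture 1 or 2 (0.0574 to 0.0861). *htz1Δ* (10.55, 10.28 and 10.45), *swr1Δ* (10.42, 10.72 and 10.56) and *htz1Δ swr1Δ* (10.27, 10.47 and 10.53) lay at similar levels and also wholly above wild type, with differences of 0.74, 0.88 and 0.74 that did not pass (adjusted p = 0.132, 0.104 and 0.186, limma). *MET14* followed *MET3* at smaller size. With all cultures in the fit it rose in *swc2Δ* alone (from 10.25 ± 0.18 to 11.33 ± 0.28, SD, n = 3 cultures, a difference of 1.08, adjusted p = 0.0376, limma), and the rise does not pass without any single wild-type culture or without *swc2Δ* culture 1 or 2 (adjusted p of 0.0528 to 0.102, limma). In *htz1Δ swc2Δ* it lay 0.97 above wild type (adjusted p = 0.0629, limma).

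*MET16* (YPR167C, phosphoadenylylsulfate reductase) passed against wild type in another set of strains. Its wild-type cultures lay at 8.79, 8.66 and 8.68. In *htz1Δ* they lay at 9.17, 9.36 and 9.26, all higher, and in *swr1Δ* at 8.73, 8.84 and 8.99, which overlaps wild type. *MET16* rose in *htz1Δ* by a small amount (0.55, standard error 0.22, adjusted p = 0.0443, limma), which does not pass when any 1 array of the 2 strains is left out (0.0609 to 0.116). It also rose in *swc2Δ* (0.99, adjusted p = 0.00218), *swc5Δ* (0.87, adjusted p = 0.00541) and *htz1Δ swc2Δ* (0.81, adjusted p = 0.00962, limma), but not in *swr1Δ* (0.15, adjusted p = 0.669) or *htz1Δ swr1Δ* (0.06, adjusted p = 0.858). The direct comparisons put *swc2Δ* above *swr1Δ* by 0.84 (adjusted p = 0.0101) and *swc5Δ* above *swr1Δ* by 0.73 (adjusted p = 0.0253, limma). The first is lost without *swc2Δ* culture 1 (0.76, adjusted p = 0.0517) and the second without *swr1Δ* culture 1 or 2, without *swc5Δ* culture 2 (0.35, adjusted p = 0.138) or with only those strains in the fit. Set directly against *swr1Δ*, *htz1Δ* was 0.41 higher and did not pass (adjusted p = 0.144, limma). The rise of *MET16* in *swc5Δ* against wild type is lost in 1 of 13 alternative fits (adjusted p = 0.115, limma).

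*MET10* (YFR030W, a subunit of sulfite reductase) was at 9.76, 9.46 and 9.83 in wild type. It was at 10.92, 11.04 and 10.54 in *swc2Δ* and at 9.90, 11.17 and 10.33 in *swc5Δ*. All 6 mutant cultures lay above wild type, *swc5Δ* culture 1 by the least. *MET10* rose 2.22-fold in *swc2Δ* (1.15, standard error 0.24, adjusted p = 0.00132), and also in *htz1Δ swc2Δ* (0.86, adjusted p = 0.0113) and *swc5Δ* (0.79, adjusted p = 0.0183, limma). In *htz1Δ swc2Δ* it does not pass without wild-type culture 2 or that strain's culture 1 (adjusted p = 0.0585 and 0.0731), and in *swc5Δ* not without wild-type culture 2 (0.0802) or *swc5Δ* culture 2 (0.44, adjusted p = 0.125, limma).

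*MET2* (YNL277W, homoserine O-acetyltransferase) rose in 5 of the 7 mutants. Wild-type cultures lay at 8.77, 8.23 and 8.62. *swr1Δ* lay at 9.44, 9.60 and 9.30 and *htz1Δ swr1Δ* at 9.36, 9.53 and 9.47, with no overlap with wild type in either. The increases were 0.91 in *swr1Δ* (standard error 0.29, adjusted p = 0.0221), 0.92 in *htz1Δ swr1Δ* (0.0227), 1.34 in *swc2Δ* (0.00164), 1.17 in *htz1Δ swc2Δ* (0.00494) and 0.84 in *swc5Δ* (adjusted p = 0.0321, limma). In *htz1Δ* the difference was 0.44 (adjusted p = 0.216) and in *htz1Δ swc5Δ* 0.64 (adjusted p = 0.0905, limma), with all cultures of both above wild type. The increase in *swr1Δ* does not pass with the values as deposited (0.45, adjusted p = 0.164), and without wild-type culture 2 neither this one nor those in *swc5Δ* and *htz1Δ swr1Δ* do (adjusted p = 0.0965, 0.132 and 0.101, limma). They are also lost without *swr1Δ* culture 1 or 2, without *htz1Δ swr1Δ* culture 2 or 3, and, for *swc5Δ*, without wild-type culture 3 or *swc5Δ* culture 2 or 3, where the increase is 0.38 without culture 2.

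*MET6* (YER091C), the methionine synthase, varied least. Its strain means ran from 13.36 ± 0.04 in wild type to 13.68 ± 0.06 in *htz1Δ swr1Δ* (SD, n = 3 cultures). *MET6* rose by 0.32 in *htz1Δ swr1Δ* (standard error 0.08, adjusted p = 0.0034) and by 0.30 in *swc5Δ* (adjusted p = 0.00535, limma). In 1 of 13 alternative fits *MET6* loses the *swc5Δ* call (adjusted p = 0.0959, limma). Against *htz1Δ* it was 0.21 higher in *htz1Δ swr1Δ* (adjusted p = 0.033, limma), a call that is lost without *htz1Δ* culture 1, 2 or 3 or *htz1Δ swr1Δ* culture 2 or 3 (0.0551 to 0.106). These differences are large only against the small spread of a gene whose highest and lowest cultures, over all 24 arrays, were 13.76 and 13.31.

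*STR3* (YGL184C, cystathionine beta-lyase) was the only one of the 10 with its highest strain mean in *htz1Δ*. In wild type it was at 7.87, 7.80 and 7.57. In *htz1Δ* it was at 8.82, 9.55 and 8.87, without overlap, and rose 2.53-fold (1.34, standard error 0.19, adjusted p = 1.88e-05, limma). *STR3* also rose in *htz1Δ swr1Δ* (0.98, adjusted p = 0.000794), *swr1Δ* (0.90, 0.0014), *swc2Δ* (0.84, 0.00278) and *htz1Δ swc2Δ* (0.76, 0.00582), and at the edge of the threshold in *swc5Δ* (0.52, adjusted p = 0.0464, limma). In *htz1Δ swc5Δ* it was at 7.89, 7.83 and 8.22, overlapping wild type (0.24, adjusted p = 0.363). The *swc5Δ* call is lost without any single wild-type culture, without *swc5Δ* culture 2 or 3 (adjusted p of 0.0593 to 0.161, limma), with median centring (0.086) or with the rank mapping over every probe set (0.0506).

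The order of *STR3* by strain mean was wild type (7.74 ± 0.16), *htz1Δ swc5Δ* (7.98 ± 0.21), *swc5Δ* (8.26 ± 0.19), *htz1Δ swc2Δ* (8.50 ± 0.35), *swc2Δ* (8.58 ± 0.27), *swr1Δ* (8.65 ± 0.21), *htz1Δ swr1Δ* (8.73 ± 0.07) and *htz1Δ* (9.08 ± 0.41, SD, n = 3 cultures each). Each strain overlapped the next in this order, except that all cultures of *htz1Δ* lay above those of *htz1Δ swr1Δ*. That last step, of 0.36, did not pass (adjusted p = 0.151, limma).

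*MUP1* (YGR055W), the methionine permease, passed the test against wild type in none of the mutants. Its strain means lay between 12.04 ± 0.24 (*htz1Δ swc5Δ*) and 12.48 ± 0.02 (*htz1Δ swr1Δ*, SD, n = 3 cultures). In *htz1Δ* the cultures lay at 12.09, 12.10 and 12.10, below the wild-type 12.42, 12.32 and 12.46, with a difference of -0.30 (adjusted p = 0.0923). *MUP1* was 0.39 higher in *htz1Δ swr1Δ* than in *htz1Δ* (adjusted p = 0.0453, limma), with no overlap of cultures, and this call is lost without any 1 of the 6 arrays (0.0811 to 0.0978). The lowest value of all 24 arrays was *swc5Δ* culture 1, at 11.66.

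**Figure D2:**
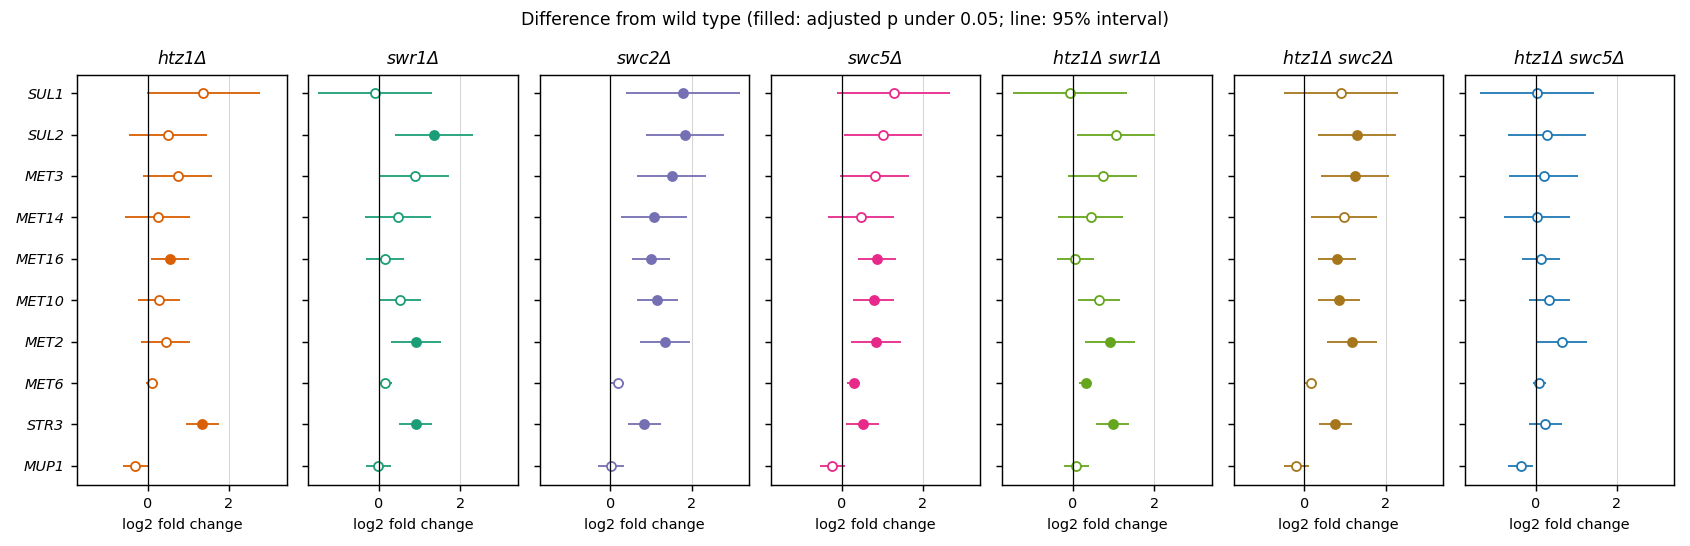
Log2 fold change against wild type (horizontal axes) for the 10 genes (vertical axis) in the 7 mutant strains, 1 panel each, with the 95% interval of the limma fit as a line and filled points for an adjusted p under 0.05. *swc2Δ* has 8 filled points and *htz1Δ swc5Δ* has 0.

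In *swc2Δ* 8 of the 10 genes rose, all but *MET6* and *MUP1*, and 6 of the 8 by over 2-fold, all but *MET16* and *STR3*. Of all 5498 probe sets 16% rose in that strain and 0.746% by over 2-fold. Since the 10 genes were chosen with earlier results of these data known, this contrast is a description and no test. The median difference of the 10 genes was 1.12, against -0.01 over all probe sets. Without *swc5Δ* culture 1, whose deviation enters the error shared by all strains, 9 of the 10 rose. With other single arrays left out the count fell as low as 6, and *SUL1* and *MET14* lose their calls in several alternative fits. In *htz1Δ swc2Δ* 6 genes rose (15% of all probe sets) and 3 by over 2-fold (0.509%), *SUL2*, *MET3* and *MET2*, with a median of 0.88 against 0.01. The count is 3 without wild-type culture 2 or *htz1Δ swc2Δ* culture 1.

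*htz1Δ* had 2 rising genes, *MET16* and *STR3* (24.2% of all probe sets), and *STR3* alone by over 2-fold (2.11%), with a median of 0.47 against -0.02. This share is no higher than over all probe sets. Still, 8 of the 10 genes were higher in every *htz1Δ* culture than in every wild-type culture, which holds for 32.1% of all probe sets. The same count of genes without overlap was 7 of 10 in *swr1Δ* (25.7%), 8 in *swc2Δ* (23%), 4 in *swc5Δ* (19.4%) or 9 without its culture 1 (30%), 7 in *htz1Δ swr1Δ* (20.9%), 7 in *htz1Δ swc2Δ* (22.8%) and 2 in *htz1Δ swc5Δ* (24.4%). The 7 comparisons share the wild-type cultures. With only *htz1Δ* and wild type in the fit 6 rose and 1 fell. The share of all probe sets called in that fit is not given here, so these counts are not set against it. *MET3* rose in *htz1Δ* as well without *swc5Δ* culture 1 (0.74, adjusted p = 0.0159) and *MUP1* fell (-0.30, adjusted p = 0.00771, limma).

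In *swr1Δ* 3 genes rose, *SUL2*, *MET2* and *STR3* (14.7%), and *SUL2* alone by over 2-fold (0.837%), with a median of 0.50 against -0.02. Without wild-type culture 2 or *swr1Δ* culture 1 or 2 only 1 did. *htz1Δ swr1Δ* also had 3, *MET2*, *MET6* and *STR3* (10.9%), none by over 2-fold (0.764%), with a median of 0.54 against -0.04. Without *swc5Δ* culture 1 in the shared error 6 rose there, *SUL2* (1.06, adjusted p = 0.0116), *MET3* (0.74, 0.0264) and *MET10* (0.64, 0.0248, limma) in addition. With only the 2 strains in the fit 7 rose in each of *swr1Δ* and *htz1Δ swr1Δ*. For these refits the shares of all probe sets are not given here, and the counts are not set against them.

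*swc5Δ* had 5 rising genes, *MET16*, *MET10*, *MET2*, *MET6* and *STR3* (16.4%), none by over 2-fold (0.527%), with a median of 0.80 against -0.00284. That count turned on single cultures. Without culture 1 of *swc5Δ* 9 genes rose, all but *MUP1* (17.9% of all probe sets), with a median of 1.17. *SUL2* then rose by 1.77 (standard error 0.34, adjusted p = 0.000607), *MET3* by 1.51 (0.000343), *MET14* by 1.18 (0.000838) and *SUL1* by 1.88 (adjusted p = 0.0426, limma), from means over the 2 remaining cultures of 9.89, 11.20, 11.43 and 6.67. The 5 genes called with all cultures differed by 1.16 (*MET16*), 1.07 (*MET10*), 1.32 (*MET2*), 0.40 (*MET6*) and 0.59 (*STR3*). In culture 1 itself *SUL2*, *MET3*, *MET14* and *SUL1* read 7.63, 9.09, 9.31 and 4.86. The first 3 of those lay below every wild-type culture. With only wild type and *swc5Δ* in the fit, which then rests on the spread of these cultures, 1 gene rose. Without wild-type culture 2 the count was 2, without wild-type culture 3 or *swc5Δ* culture 3 it was 3, and without *swc5Δ* culture 2 it was 2 rising and 1 falling.

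*htz1Δ swc5Δ* had none of the 10 genes called (17.9% of all probe sets up, 0.673% by over 2-fold), with a median of 0.17 against 0.01. At an unadjusted p under 0.05 *MET2* was higher by 0.64 and *MUP1* lower (-0.36) in limma (adjusted p = 0.0905 and 0.0608). Both pass without *swc5Δ* culture 1 in the shared error (adjusted p = 0.0133 and 0.00331, limma). 1 gene fell with the values as deposited, with quantile normalization, with median centring or without *htz1Δ swc5Δ* culture 3, and 1 rose with only the 2 strains in the fit. *SUL2* values were 8.43, 8.03 and 8.75, and *MET3* values 9.87, 9.64 and 10.15, in both cases overlapping wild type.

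The double mutants were compared with *htz1Δ* to ask what a missing subunit adds where H2A.Z is absent, and *STR3* was the gene that fell. The strains compared also differ in *BAR1*, which *htz1Δ* alone lacks, and the part of this difference was not tested. Against *htz1Δ*, *STR3* fell by 1.10 in *htz1Δ swc5Δ* (standard error 0.19, adjusted p = 0.000415) and by 0.58 in *htz1Δ swc2Δ* (adjusted p = 0.0271, limma), and was 0.36 lower in *htz1Δ swr1Δ* without passing. Cultures of *htz1Δ* and *htz1Δ swc2Δ* overlapped, and the fall there is lost without *htz1Δ* culture 2 or *htz1Δ swc2Δ* culture 2 or 3 (adjusted p of 0.0525 to 0.187) or with only the 2 strains in the fit (0.106). No other of the 10 genes fell in these comparisons. Thus 1 of 10 fell in *htz1Δ swc5Δ* (14.8% of all probe sets), 1 in *htz1Δ swc2Δ* (16.4%) and 0 in *htz1Δ swr1Δ* (21.5%). *MET6* and *MUP1* made 2 rising genes in *htz1Δ swr1Δ* (16.6%), and 0 rose in *htz1Δ swc2Δ* (18.5%) and *htz1Δ swc5Δ* (17.7%). At an unadjusted p under 0.05 the doubles also differed from *htz1Δ* in *SUL1* and *MET16* (*htz1Δ swr1Δ*, lower) and in *MET10* and *MET2* (*htz1Δ swc2Δ*, higher). *SUL1* lay 1.43 below *htz1Δ* in *htz1Δ swr1Δ* and 1.33 below it in *htz1Δ swc5Δ*, each without overlap of cultures, and passes in neither (adjusted p = 0.0957 and 0.134) unless only the 2 strains are fitted (0.00049 and 0.00211, limma). Without *swc5Δ* culture 1 in the shared error *SUL2*, *MET14*, *MET10* and *MET2* were higher in *htz1Δ swc2Δ* than in *htz1Δ* (0.58 to 0.79, adjusted p of 0.0067 to 0.0468), and *MET16* was lower in *htz1Δ swr1Δ* (-0.49, adjusted p = 0.039, limma).

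The double mutants were set against the subunit single mutants to ask what the loss of H2A.Z adds where a subunit is absent. None of the 10 genes passed in any of the 3 comparisons. The share of all probe sets that passed in either direction was 1.24% for *htz1Δ swr1Δ* against *swr1Δ*, 0.0728% for *htz1Δ swc2Δ* against *swc2Δ* and 6.89% for *htz1Δ swc5Δ* against *swc5Δ*. At an unadjusted p under 0.05 *MET6* (0.17) passed in the first, none in the second and *MET16* (-0.73) and *MET6* (-0.21) in the third. The intervals of the differences were wide for some genes. For *SUL2* the 95% interval ran from -1.25 to 0.67 in *htz1Δ swr1Δ* against *swr1Δ* and from -1.50 to 0.41 in *htz1Δ swc2Δ* against *swc2Δ*. For *STR3* it ran from -0.33 to 0.48 and from -0.48 to 0.33. Culture numbers paired the arrays in the first and second of these comparisons (same-numbered cultures deviated together), so the differences within pairs are given too. *SUL2* was lower in all 3 pairs of both, with differences of -0.36, -0.36 and -0.15 in *htz1Δ swr1Δ* against *swr1Δ* and of -0.52, -0.82 and -0.29 in *htz1Δ swc2Δ* against *swc2Δ*. *MET3* and *MET16* were also lower in all 3 pairs of both, and in the second comparison *MET14* and *MUP1* as well, while *MET6* and *MUP1* were higher in all 3 pairs of the first. With the culture number as a block and only the strains compared in the fit, 0 of the 10 genes passed in either (5.07% and 0.0364% of all probe sets did). The interval of *SUL2* then ran from -0.44 to -0.15 (adjusted p = 0.0541) in the first and from -0.79 to -0.30 (adjusted p = 0.109, limma) in the second. At an unadjusted p under 0.05 in that fit *SUL2*, *MET3*, *MET6* and *MUP1* differed in the first and *SUL1*, *SUL2*, *MET3*, *MET10* and *MUP1* in the second. With the values as deposited 4 genes were called in each comparison, higher in *htz1Δ swr1Δ* and lower in the other double mutants. In those values the single mutants lie at other array levels. Against wild type the median over all probe sets was then -0.44 in *swr1Δ*, 0.32 in *swc2Δ* and 0.21 in *swc5Δ*. The share of all probe sets called in these comparisons as deposited is not given here. The 4 calls are therefore not read as a result on these genes.

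In the third of these comparisons the loss of *HTZ1* and *lys2Δ0* cannot be told apart. It turned on *swc5Δ* culture 1. Without that culture 8 of the 10 genes were lower in *htz1Δ swc5Δ* than in *swc5Δ* (14.7% of all probe sets were), with differences of -1.48 for *SUL2* (standard error 0.34, adjusted p = 0.00407), -1.31 for *MET3* (0.00212) and -1.13 for *MET14* (adjusted p = 0.00208, limma). *SUL1* (-1.85, adjusted p = 0.0556) and *STR3* (-0.35, 0.249) were the 2 that did not pass.

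The single mutants were also compared with each other. *htz1Δ* was lower than *swc2Δ* in *SUL2* (-1.33, adjusted p = 0.0259), *MET10* (-0.87, 0.00807) and *MET2* (-0.90, 0.0183) and higher in *STR3* (0.50, adjusted p = 0.0457, limma), 4 of 10 genes (41.2% of all probe sets in either direction). With the culture number as a block and only these 2 strains in the fit, 7 of 10 were lower in *htz1Δ* (41.1% of all probe sets in either direction), *MET3*, *MET14*, *MET16* and *MUP1* in addition. Pairing is uncertain here, since same-numbered cultures correlated at 0.14 to 0.27 and differently numbered cultures of different strains at up to 0.36. The *STR3* call is lost with only these 2 strains in the fit, with or without the culture number as a block (adjusted p = 0.107 and 0.113), with the values as deposited (0.17, adjusted p = 0.431) and without *htz1Δ* culture 2 (0.27, adjusted p = 0.28, limma) or *swc2Δ* culture 2 or 3, and with quantile normalization (0.055). The *MET2* call is lost without *htz1Δ* culture 2 or *swc2Δ* culture 1 or 2 (0.0633 to 0.0654), and the *SUL2* call without any single *htz1Δ* culture or without *swc2Δ* culture 1 or 2 (0.0515 to 0.0918). *STR3* was also higher in *htz1Δ* than in *swc5Δ* (0.82, adjusted p = 0.00358, limma), the only gene of the 10 (34.9%) unless *swc5Δ* culture 1 is left out. Then 8 of the 10 were lower in *htz1Δ* (24.6%), all but *SUL1* and *STR3*. Between *htz1Δ* and *swr1Δ* 0 of 10 passed (43%), although *SUL1* lay 1.47 apart without overlap of cultures (adjusted p = 0.0815). At an unadjusted p under 0.05 *SUL1* and *STR3* differed between them. Without *swc5Δ* culture 1 in the shared error *SUL2* (-0.85, adjusted p = 0.0287) and *MUP1* (-0.29, adjusted p = 0.0129, limma) were lower in *htz1Δ* than in *swr1Δ*, and 7 genes differed between *htz1Δ* and *swc2Δ*.

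*SUL1* (1.88, adjusted p = 0.0498) and *MET16* were higher in *swc2Δ* than in *swr1Δ*, 2 of 10 genes (22%), and *MET16* alone was higher in *swc5Δ* than in *swr1Δ* (21.7%). *SUL1* does not pass there without any 1 array of *swr1Δ* or without *swc2Δ* culture 1 or 2 (adjusted p of 0.0895 to 0.287, limma), with only those strains in the fit (0.109) or with quantile normalization (0.0518). *swc2Δ* and *swc5Δ* differed in 0 of 10 genes (3.51%), and none passed at an unadjusted p under 0.05 (limma). *SUL1*, *MET14*, *MET16* and *MET6* were higher in *swc5Δ* than in *swr1Δ* once *swc5Δ* culture 1 was left out (adjusted p of 0.00162 to 0.0407), and *MET6* then differed by -0.22 between *swc2Δ* and *swc5Δ* (adjusted p = 0.0445, limma).

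The interactions ask whether *htz1Δ* differs from wild type by the same amount as a double mutant differs from its subunit single mutant. For *STR3* the first difference was larger, at 1.34. The second was 0.08 for Swr1, -0.08 for Swc2 and -0.28 for Swc5. The interaction, the second difference minus the first, was -1.26 for Swr1 (standard error 0.27, adjusted p = 0.00202), -1.42 for Swc2 (0.000799) and -1.62 for Swc5 (adjusted p = 0.000191, limma), and passed under every alternative fitted. *STR3* was 1 of 10 genes with an interaction below 0 for Swr1 (16.9% of all probe sets) and 1 of 10 for Swc2 (14.3%). For Swc5 there were 4 of 10 (16.4%), with *SUL1* (-2.61), *MET16* (-1.29) and *MET6* (-0.32) besides, and 9 of 10 without *swc5Δ* culture 1 (18%), all but *MUP1*. The interactions of *SUL1* and *MET6* each lose their call without 1 of several cultures (adjusted p of 0.0526 to 0.11, limma), and that of *MET6* also with median centring (0.0533) or only those strains (0.0621). The 3 interactions share the wild-type and *htz1Δ* cultures.

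The spread between cultures of a strain was itself uneven. The median SD over the 10 genes was 0.12 in *htz1Δ* and *htz1Δ swr1Δ*, 0.15 in *swr1Δ*, 0.17 in wild type, 0.22 in *htz1Δ swc5Δ*, 0.28 in *htz1Δ swc2Δ*, 0.30 in *swc2Δ* and 0.81 in *swc5Δ*. Over all probe sets the medians ran from 0.07 to 0.15. For 8 of the 10 genes the range within *swc5Δ* exceeded the whole range of the 8 strain means, and *MET14* spanned 2.57 within *swc5Δ* against 1.08 between strain means.

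The 6 genes of sulfate uptake, activation and reduction (*SUL1*, *SUL2*, *MET3*, *MET14*, *MET16* and *MET10*) were also averaged for each culture. Their mean was 10.33, 10.17 and 9.30 in *swc2Δ* cultures 1, 2 and 3 and 10.01, 9.52 and 9.14 in *htz1Δ swc2Δ* cultures of the same numbers. It was 8.30, 10.52 and 9.41 in *swc5Δ*, and between 8.38 and 9.23 on all arrays of wild type, *htz1Δ*, *swr1Δ*, *htz1Δ swr1Δ* and *htz1Δ swc5Δ*. The order of cultures 1, 2 and 3 was thus the same in both strains without Swc2. Their lowest cultures lay close to the highest of those 5 strains.

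The mean of 12 arginine, lysine and histidine synthesis genes was read beside it, since these also varied between cultures. It lay between 10.24 and 10.87 on all arrays but 4. Those 4 were the *htz1Δ* cultures (11.57, 12.49 and 12.67) and *swc5Δ* culture 1 (12.95). On *swc5Δ* culture 1 the sulfate genes had the lowest mean of all arrays, whereas in *htz1Δ* they were above wild type. The part of this difference between cultures in the results on *swc5Δ* was not tested.

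**Figure D3:**
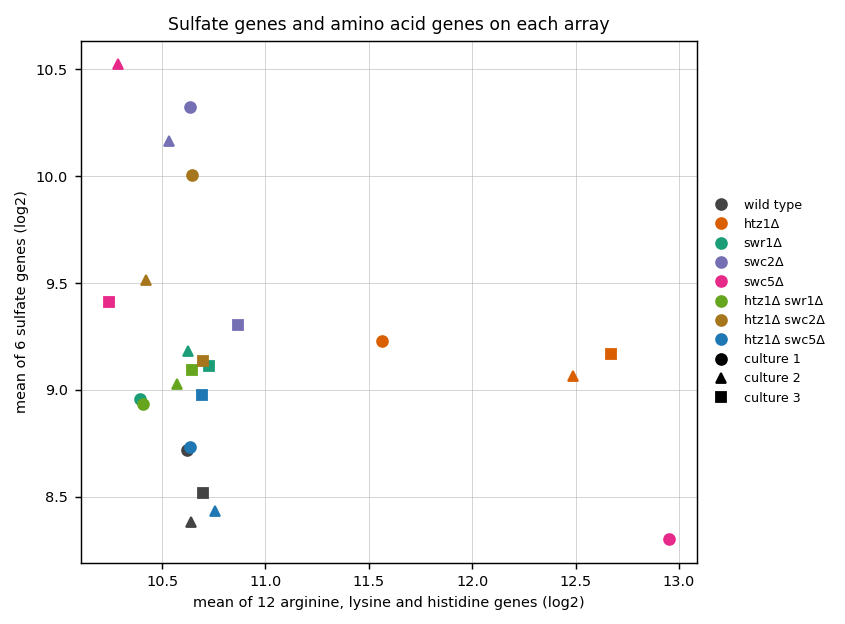
Mean log2 expression of the 6 sulfate genes (vertical axis) against that of 12 arginine, lysine and histidine genes (horizontal axis), 1 point per array, with colour for the strain and marker shape for the culture number. The 3 *htz1Δ* arrays and *swc5Δ* culture 1 lie to the right of 11.5, and *swc5Δ* culture 1 is the lowest point, at 8.30.

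Of 45 other genes of sulfur metabolism listed by their known roles, 44 were measured (all but *SOA1*). In *htz1Δ* 11 of the 44 rose and 9 fell, where 24.2% of all probe sets rose and 26.9% fell, so the share that rose was near that of all probe sets. In *swc2Δ* 11 rose and 5 fell (16% and 17.3% of all probe sets). The counts up and down were 5 and 2 in *swr1Δ* (14.7% and 17.6%), 4 and 2 in *htz1Δ swr1Δ* (10.9% and 18%), 6 and 2 in *htz1Δ swc2Δ* (15% and 16.3%) and 3 and 4 in *htz1Δ swc5Δ* (17.9% and 18.7%). In *swc5Δ* they were 8 and 4 (16.4% and 16.6%), and 11 and 4 without culture 1 (17.9% and 17.7%). With all cultures their median difference from wild type lay between -0.04 and 0.11. *MET17*, deleted in all strains and at background, is counted there as rising by 0.35 in *swr1Δ* (adjusted p = 0.0127) and falling by 0.32 in *swc2Δ* (adjusted p = 0.0204, limma), so differences of this size were called at that level for a gene that no strain has.

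Of the 3 other genes listed for sulfite reduction and its cofactor, *MET5* and *MET1* rose in both strains without Swc2. The third, *MET8*, which acts in siroheme synthesis, did not pass there (0.14, adjusted p = 0.39, in *swc2Δ* and 0.06, adjusted p = 0.718, in *htz1Δ swc2Δ*) and fell in *htz1Δ* (-0.34, adjusted p = 0.0206, limma). *MET5*, the other subunit of sulfite reductase, was at 10.16, 10.06 and 10.18 in wild type, at 11.21, 11.48 and 10.98 in *swc2Δ* and at 11.36, 11.33 and 10.54 in *htz1Δ swc2Δ*. No culture of these mutants overlapped wild type, while *swc5Δ* culture 1 lay below it. *MET5* rose by 1.09 in *swc2Δ* (adjusted p = 0.00456), 0.94 in *htz1Δ swc2Δ* (0.0124), 0.80 in *htz1Δ swr1Δ* (0.0314) and 0.72 in *swc5Δ* (adjusted p = 0.0476, limma). In *swc5Δ* without culture 1 the rise was 1.15 (adjusted p = 0.000419, limma). *MET1*, which makes siroheme, the cofactor of the reductase, rose by 0.74 in *swc2Δ* (adjusted p = 0.0207) and 0.65 in *htz1Δ swc2Δ* (adjusted p = 0.0412, limma), and in *swc5Δ* only without culture 1 (0.65, adjusted p = 0.0328).

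*MET13*, the methylenetetrahydrofolate reductase that supplies the methyl group for Met6, was highest in *htz1Δ*. Its values were 8.81, 8.93 and 9.02 in wild type, 10.60, 11.21 and 10.95 in *htz1Δ* and 10.98, 9.94 and 9.51 in *swc5Δ*. *swc5Δ* culture 1 thus lay among the *htz1Δ* cultures. *MET13* rose in *htz1Δ* by 2.0 (adjusted p = 3.18e-06), 1.36 in both *swr1Δ* and *htz1Δ swr1Δ*, 1.22 in *swc5Δ* and 0.91 in *swc2Δ* (adjusted p = 0.00824, limma). Without culture 1 the rise in *swc5Δ* was 0.81 (adjusted p = 0.00172, limma). Among the regulators *MET28* rose in all mutants except *htz1Δ swr1Δ*, by 0.46 to 0.99, and *MET4*, the activator, rose by 0.65 in *htz1Δ* (adjusted p = 1.68e-06) and by 0.26 to 0.36 in *swc2Δ*, *swc5Δ*, *htz1Δ swc2Δ* and *htz1Δ swc5Δ*. In *swc5Δ* without culture 1 *MET28* rose by 0.90 (adjusted p = 0.000509) and *MET4* did not pass (0.18, adjusted p = 0.0616, limma).

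*JLP1*, a dioxygenase that frees sulfur from sulfonates, went from 5.97, 5.76 and 5.51 in wild type to 7.63, 7.90 and 7.70 in *htz1Δ*, without overlap (2.0, standard error 0.37, adjusted p = 0.000206, limma). In *swc2Δ* it read 7.90, 6.87 and 6.25 and rose by 1.26 (adjusted p = 0.0127, limma), with culture 1 highest as for *SUL1*. *UTR4* and *MDE1* act in methionine salvage. *UTR4* fell in all 7 mutants, most in *htz1Δ* (-1.26, adjusted p = 6.84e-07) and least in *swr1Δ* (-0.71, adjusted p = 0.000537, limma), and *MDE1* rose in all 7, by 0.34 to 0.55. *SSU1*, the sulfite exporter, fell by 0.60 to 0.88 in all mutants except *htz1Δ*. Without culture 1 the values in *swc5Δ* were -0.53 for *UTR4*, the smallest of the 7 mutants then, 0.35 for *MDE1* and -0.93 for *SSU1*, and each passed (adjusted p = 9.46e-05, 0.00241 and 0.000824, limma).

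**Figure D4:**
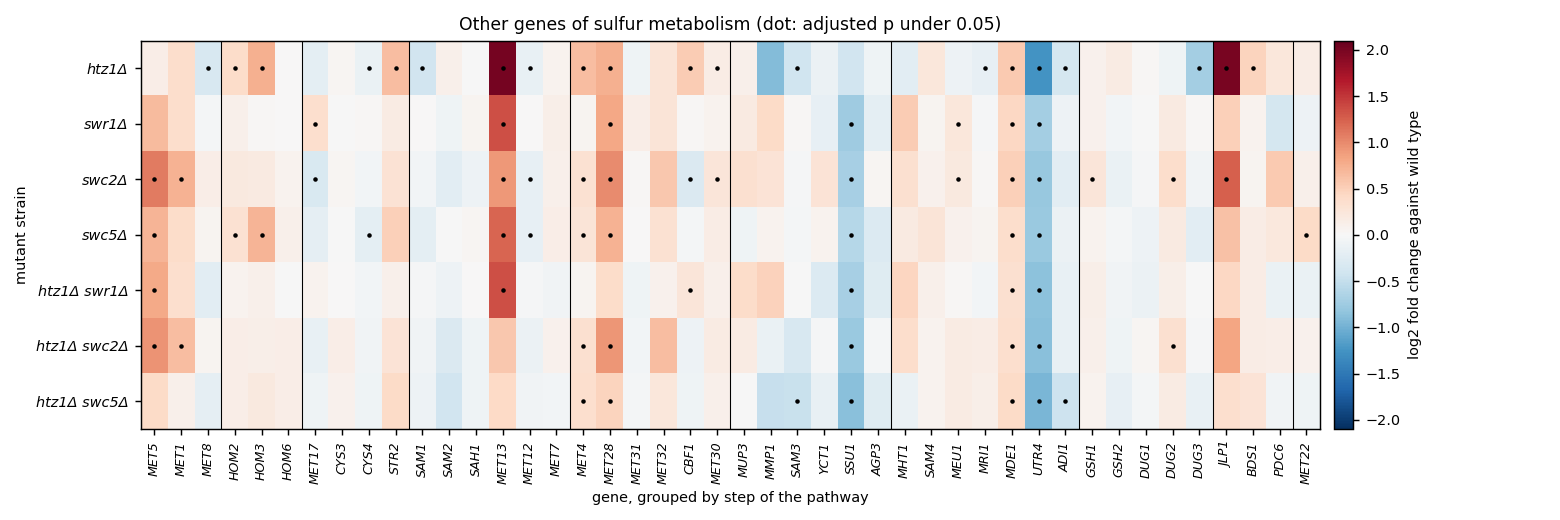
Log2 fold change against wild type (colour) of 44 other genes of sulfur metabolism (columns, with lines between steps of the pathway) in the 7 mutant strains (rows), with a dot for an adjusted p under 0.05. *UTR4* is marked as lower in all 7 rows, and *MET13* and *JLP1* are most raised in *htz1Δ*, each by 2.0.

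Over the 24 arrays the 10 genes did not follow each other equally. The Pearson correlation of a gene with the mean of the other 9, each scaled to its own spread, was 0.96 for *MET3*, 0.95 for *SUL2*, 0.92 for *MET14* and *MET10* and 0.90 for *MET2*. It was 0.76 for *MET16*, 0.65 for *SUL1*, 0.64 for *MET6*, 0.47 for *STR3* and 0.46 for *MUP1*. The closest pair was *MET3* with *MET14* (0.96) and the least alike *STR3* with *MUP1* (0.15). These values describe 24 arrays that share strains, cultures and array levels, and carry no test.

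Outside the 10 genes the probe sets most like their scaled mean over the 24 arrays were *MET1* (Pearson correlation 0.95), *MET5* (0.90), *MET32* (0.83), *MET28* (0.79), *SER33* (0.79), *OPT2* (0.78), *PXL1* (0.78) and *MPS3* (0.76). The first 4 belong to the pathway, *MET1* and *MET5* as enzymes and *MET32* and *MET28* as regulators. *SER33* is an enzyme of serine synthesis, *OPT2* an oligopeptide transporter, *PXL1* a LIM-domain protein of polarised growth and *MPS3* a protein of the nuclear envelope. *OPT2* rose by 1.16 to 1.46 in 6 mutants, *htz1Δ swc5Δ* being the exception, whereas *MET32* passed in none against wild type. Without *swc5Δ* culture 1 the rise of *OPT2* in that strain was 1.69 (adjusted p = 1.42e-05) and *MET32* rose there by 0.77 (adjusted p = 0.000972, limma).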

How the data were processed

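Total RNA of 8 yeast strains, 3 independent cultures each, was hybridised to Affymetrix Yeast Genome 2.0 arrays of 1 colour. The authors deposited log2 expression values per probe set, made with RMA (background correction, quantile normalization and summary of the probes), and the submitters' processing notes also name GCOS and limma, without versions. Which arrays were normalized together is not given in the sources used here. Precision is limited by the number of arrays.

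Of 10928 probe sets, the 5498 that the platform annotation pairs with 1 *S. cerevisiae* gene were tested, which leaves out 1746 of another species, 1 with several genes and 3683 with no gene named here. The 9 arrays of *swr1Δ*, *swc2Δ* and *swc5Δ* were mapped by rank over the tested probe sets to the mean distribution of the 15 others. In R 4.3.3, limma 3.58.1 (lmFit and eBayes, each strain with its own mean, 16 residual and 2.80 prior degrees of freedom) gave 22 comparisons and interactions. Benjamini-Hochberg adjustment ran over all tested probe sets of a comparison, and changed means an adjusted p under 0.05. The script was tested on simulated data.

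The genes and lists were chosen with earlier results of these data known. All 10 genes are named. Of the pathway lists, those changed by over 2-fold against wild type in any mutant are named by rule (*MET5*, *MET13*, *UTR4* and *JLP1*), as are the 8 probe sets with the highest correlation with the 10 genes. *MET1*, *MET4*, *MET8*, *MET28*, *MDE1*, *SSU1* and *MET17* were named after their values were seen, and some of these also fall under the last rule. The other-species probe sets gave the background level.

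Alternatives were the values as deposited, quantile normalization, median centring, only the strains compared, the dimmest 25% of probe sets left out, the culture number as a block and each array left out. Leaving out *swc5Δ* culture 1 throughout, mapping over every probe set, and the block with only the strains compared were chosen after seeing the data. Culture numbers were read as pairs where the residuals of same-numbered cultures correlated over 0.1 in every pair. This held for *htz1Δ swr1Δ* with *swr1Δ* (0.37 to 0.53), *htz1Δ swc2Δ* with *swc2Δ* (0.55 to 0.62) and *htz1Δ* with *swc2Δ* (0.14 to 0.27), and the pairing comes from the data, not from the labels. Differently numbered cultures of different strains correlated from -0.50 to 0.36. The values of *htz1Δ* with *swc2Δ* lie within that range, so pairing is uncertain there. Promoter and protein sequences were not used here.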

Additional observations from a re-analysis of the deposited data

Results flagged for a closer look

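6 results differed between strains by the interaction test of limma, in which the difference of a double mutant from its subunit single mutant is set against that of *htz1Δ* from wild type. *STR3* had interactions of -1.26 with Swr1 (adjusted p = 0.00202), -1.42 with Swc2 (adjusted p = 0.000799) and -1.62 with Swc5 (adjusted p = 0.000191). It was higher in every *htz1Δ* culture than in every wild-type culture, whereas *htz1Δ swr1Δ*, *htz1Δ swc2Δ* and *htz1Δ swc5Δ* overlapped their subunit single mutants. With Swc5 the interaction was also below 0 for *SUL1* (-2.61, adjusted p = 0.0378), *MET16* (-1.29, adjusted p = 0.0038) and *MET6* (-0.32, adjusted p = 0.028). Without *swc5Δ* culture 1 these 3 were -3.22, -1.57 and -0.41 (adjusted p = 0.0115, 0.000272 and 0.00169, limma). *SUL1* in *swc5Δ* spanned 4.86 to 7.54, the second widest range of this gene after *swc2Δ*.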

How the results depend on the processing

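The 60 single-gene results followed here are those called, or different by over 2-fold, with all cultures in the fit. Of their 874 values under the alternatives, 735 kept their direction and side of the threshold, 116 lost the call, 23 gained it and 0 reversed. Calls gained by other results are outside this tally. Without *swc5Δ* culture 1, for example, 8 genes were called in *htz1Δ swc5Δ* against *swc5Δ*, where none passed with all cultures. The counts of called genes among the 10 moved as follows, and the cause was not tested except where named. The number of all probe sets called moved with the setting too. In *swr1Δ* against wild type 807 rose on the common level, 115 with the values as deposited and 982 with median centring. Shares of all probe sets are not given beside the counts of this section, which therefore do not separate a change in these genes from a change over all probe sets. With only the strains compared, the counts against wild type became 7 (*htz1Δ*, 2 otherwise), 7 (*swr1Δ*, 3), 1 (*swc5Δ*, 5), 7 (*htz1Δ swr1Δ*, 3) and 1 (*htz1Δ swc5Δ*, 0), and those against *htz1Δ* 7 (*htz1Δ swr1Δ*, 2), 3 (*htz1Δ swc2Δ*, 1) and 4 (*htz1Δ swc5Δ*, 1). Quantile normalization gave 4 in *htz1Δ*, and quantile normalization, median centring and the values as deposited each gave 1 in *htz1Δ swc5Δ*. Against the subunit single mutants 0 genes passed on the common level. The values as deposited, in which those single mutants lie at other array levels, gave 4 in each of the 3 double mutants. Quantile normalization and median centring gave 1 in *htz1Δ swc5Δ*. Leaving out the dimmest 25% of probe sets removes *SUL1* and *STR3* from the test, and left 1 in *htz1Δ* and 0 in *htz1Δ swc2Δ* and *htz1Δ swc5Δ* against *htz1Δ*.

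With 1 array left out at a time, *swc5Δ* culture 1 included in every comparison, the counts against wild type ran from 1 to 4 in *htz1Δ*, 1 to 4 in *swr1Δ*, 6 to 9 in *swc2Δ*, 2 to 9 in *swc5Δ*, 2 to 6 in *htz1Δ swr1Δ*, 3 to 8 in *htz1Δ swc2Δ* and 0 to 2 in *htz1Δ swc5Δ*. Against *htz1Δ* they ran from 0 to 3 in *htz1Δ swr1Δ* and 0 to 5 in *htz1Δ swc2Δ* and stayed at 1 in *htz1Δ swc5Δ*. Against the single mutants they stayed at 0, except from 0 to 8 in *htz1Δ swc5Δ* against *swc5Δ*. The highest values came without *swc5Δ* culture 1. Of the 10 genes, only *SUL1* and *STR3* were among the dimmest 25% of probe sets.

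The culture number as a block over all 24 arrays changed none of the 60 single-gene calls, and gave 1 called gene in place of 0 in *htz1Δ swc5Δ* against *swc5Δ*. In *htz1Δ* against *swc2Δ*, where the pairing by culture number is uncertain, the block with only those strains fitted kept 3 of 4 calls, lost *STR3* (adjusted p = 0.107, limma) and added 4 genes. In *htz1Δ swr1Δ* against *swr1Δ* and *htz1Δ swc2Δ* against *swc2Δ* it left the counts at 0.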
